A study of Mus musculus with 30 samples.

Results

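Neonatal mouse microglia kept for 21 days in mixed glial culture (Protocol 1C) were compared with and without HMGB1. The 6 libraries were taken by their labels, 3 HMGB1 and 3 Control of the 21-day cultures, out of the 30 libraries of the series. All 6 came from brains of C57/B6 mice at postnatal days 0 to 3, and both groups were grown with GM-CSF at 0.5 ng/ml. Each suspension pooled 5 pups, and replicates were litters of their own. Microglia were shaken off the glial layer, plated overnight in serum-free medium and then left untreated (Control) or given HMGB1 for 4 h before RNA was taken. The HMGB1 dose for these cultures is not given in the sources used here. Total counts per library ranged from 16111171 to 21206418 in Control and from 22337505 to 28564757 with HMGB1. Levels are given as CPM, counts relative to the library total after TMM scaling. TMM gives each library a scale factor and assumes that most genes do not change. A gene is said to rise or fall where the edgeR quasi-likelihood F test gave a Benjamini-Hochberg adjusted p below 0.05 over all genes tested.

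HMGB1 is a nuclear DNA-binding protein that damaged or activated cells release, and outside the cell it acts as an alarm signal. It is known to signal through Toll-like receptors, chiefly TLR4 with its partner MD-2, and through the receptor RAGE. The adaptor MyD88 leads from these receptors to NF-kB and MAP kinases and so to cytokine genes, while the adaptor TRIF leads to IRF3 and interferon-β. Secreted interferon then turns on antiviral genes through JAK-STAT signalling. Microglia, the resident macrophages of the brain, carry these receptors and are a main source of TNF and IL-1β there.

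The cultured cells held the RNA of macrophages but little of the genes that set brain microglia apart. Control libraries held Csf1r, the receptor for macrophage colony-stimulating factor, at 1195, 1056 and 1201 CPM, and Cd68, a lysosomal membrane protein of macrophages, at 1034, 969 and 1173 CPM. Tmem119, a membrane protein of resident microglia, stood at 1.62, 0.853 and 1.63 CPM. Sall1, a transcription factor of that state, stood at 2.58, 2.48 and 3.26 CPM, and Siglech had 2 counts over the 3 Controls. The purinergic receptor P2ry12 was between 7.49 and 10.6 CPM. The cells are therefore called cultured microglia here by their label, with the resident markers near 0 or low.

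Treatment separated the 6 libraries along the first principal component, which held 85.15% of the variance. Of 14328 genes tested, 8632 (60.2%) passed, of which 4069 rose (28.4% of all tested) and 4563 fell (31.8%). Changes of at least 2-fold were found in 2285 genes that rose (15.9%) and 2228 that fell (15.5%), but the largest changes were mostly rises, with 542 genes up and 157 down by at least 8-fold, and 146 up and 16 down by at least 32-fold. The balance depended on scaling. TMM factors were 1.22 to 1.29 in Control and 0.771 to 0.827 with HMGB1, and with library totals alone the median gene moved by -0.63 on the log2 scale, so that 2134 genes rose and 8578 fell. Changes smaller than that shift take their direction from the scaling, and the lists below whose larger direction turned with it are named as such. The 41 lists of pathways and cell states held 899 genes tested, of which 424 rose and 231 fell. Counts within a list are to be read against the 28.4% and 31.8% of all genes tested.

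**Figure D1:**
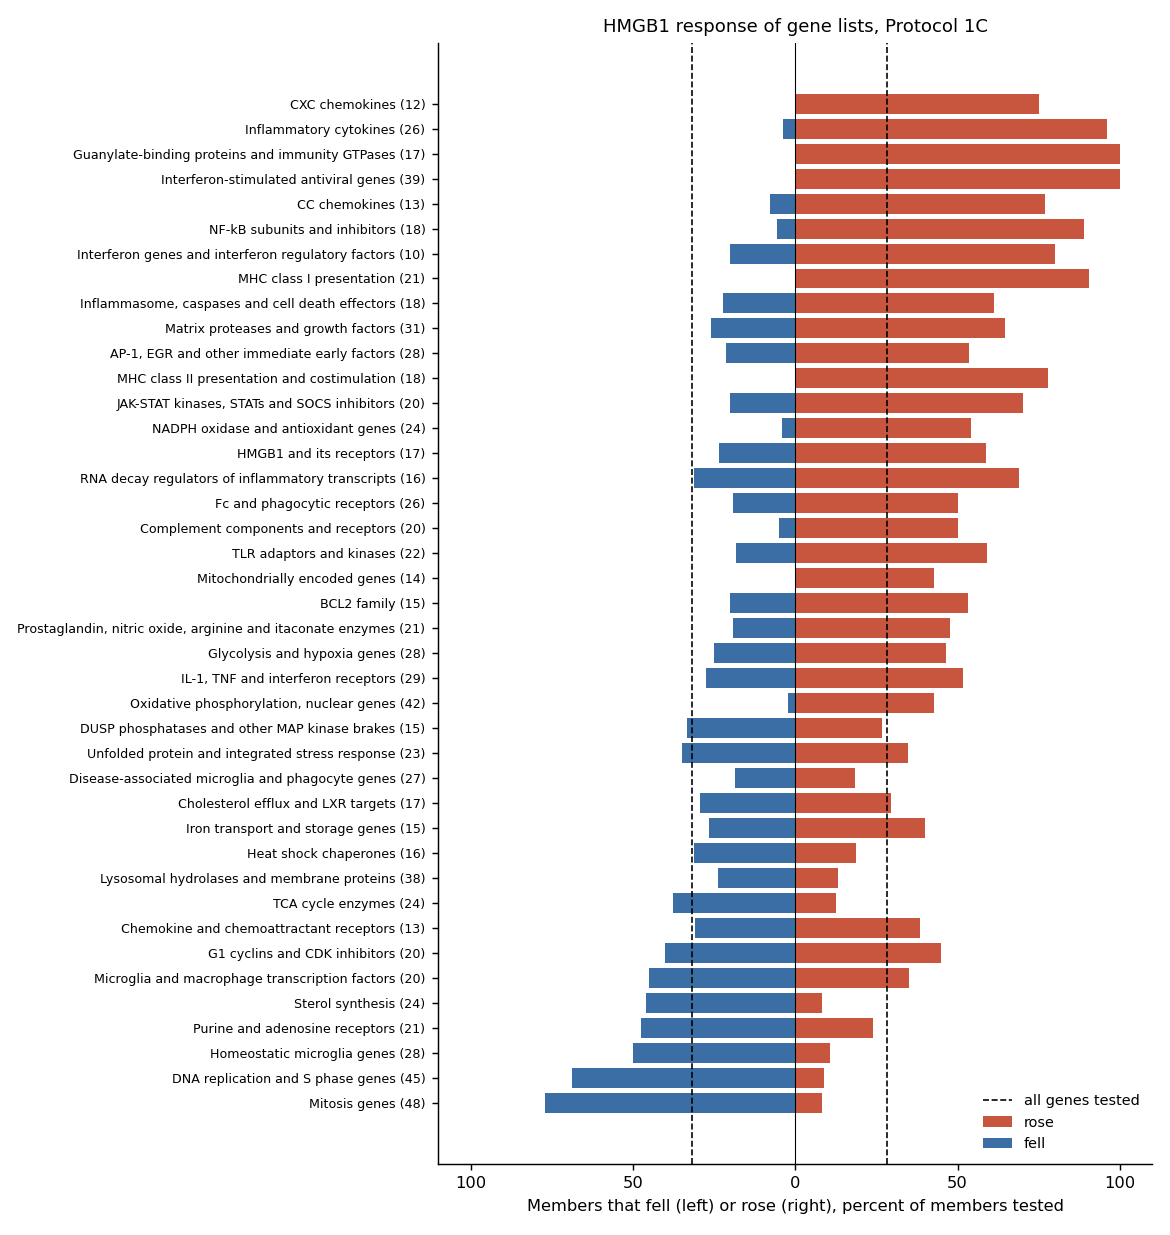
Percent of tested members that rose (right) or fell (left) in each of 41 gene lists of Protocol 1C, ordered by median log2 fold change, with dashed lines at 28.4% and 31.8%, the shares of all genes tested. Cytokine, chemokine and interferon lists are at the top and mitosis and DNA replication at the bottom, and with library totals alone the nuclear oxidative phosphorylation genes gave 1 rise and 29 falls.

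Cytokines and inflammatory enzymes made the largest rises. Nos2, the inducible nitric oxide synthase (ENSMUSG00000020826, chromosome 11, 78920787 to 78960254 in the deposited annotation), was at 1.11, 0.185 and 0.621 CPM in Control and at 554, 694 and 921 CPM after HMGB1. The log2 fold change was 10.22, with a standard error of 0.489 and an adjusted p of 7.86e-06. Ptgs2, the cyclooxygenase that starts prostaglandin synthesis, went from 4.05, 3.52 and 5.40 CPM to 2951, 3075 and 3606 CPM (9.53, standard error 0.206). Cd69, a membrane protein of activated leukocytes, went from 4.15, 1.74 and 4 CPM to 2239, 2520 and 3033 CPM (9.64, standard error 0.371). In each the lowest HMGB1 library was far above the highest Control library, and absence of overlap was part of the rule that picked them. Upp1, which splits uridine, rose by 8.69, and Serpina3f, a serine protease inhibitor, by 9.11. Acod1, which makes itaconate from a citric acid cycle intermediate, rose from 30.7, 18.4 and 29.9 CPM to 7403, 7718 and 7937 CPM (8.19, standard error 0.230).

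Large falls were found as well. Cnr2, the cannabinoid receptor of immune cells (ENSMUSG00000062585, chromosome 4, 135895394 to 135920207), was at 32.6, 31.1 and 24.3 CPM in Control and at 0.509, 0.496 and 0.251 CPM after HMGB1. Its log2 fold change was -6.10, with a standard error of 0.233 and an adjusted p of 1.84e-09. Bmf, a BCL2 family member that promotes apoptosis, went from 12.5, 13.3 and 14.6 CPM to 0.466, 0.606 and 0 CPM (-5.22, standard error 0.449). Lpin1, a phosphatidate phosphatase, went from 39.3, 43.1 and 38.9 CPM to 1.99, 1.32 and 1.61 CPM (-4.60, standard error 0.154). None of these groups overlapped, which the rule that picked the genes required. Of all genes tested, 31.6% were higher and 35.3% lower with HMGB1 without overlap. Other large falls were Plekhg3 (-4.88), Nat8l, which makes N-acetylaspartate (-4.71), Epor, the erythropoietin receptor (-4.55), Angptl4, an inhibitor of lipoprotein lipase (-4.36), Lpar5, a receptor for lysophosphatidic acid (-4.34), the clock output factor Dbp (-4.31) and Gpr183, a receptor for oxysterols (-4.23).

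**Figure D2:**
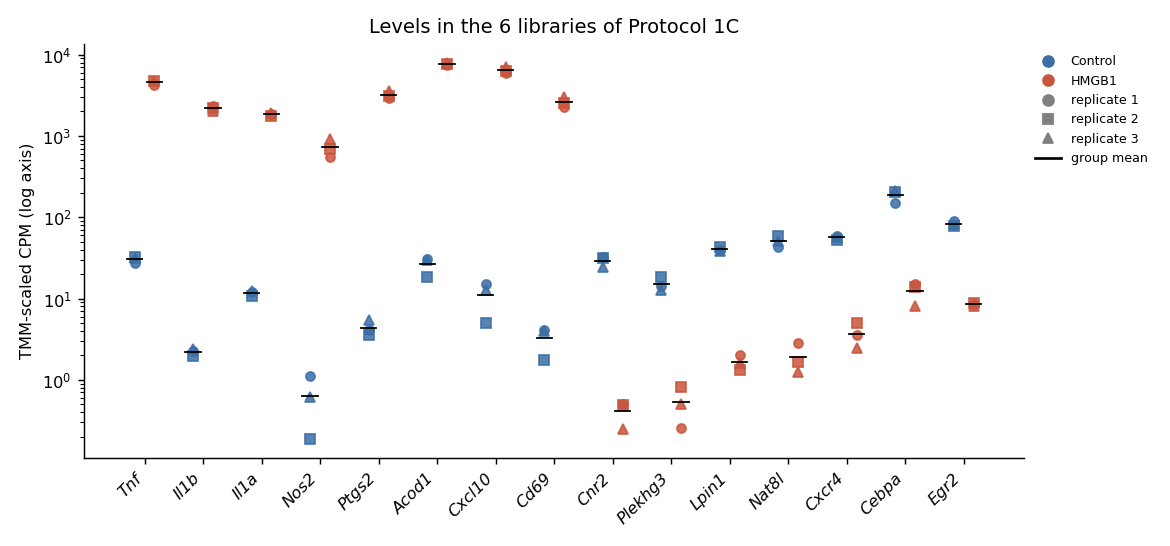
Levels of 15 genes in the 6 libraries of Protocol 1C, in TMM-scaled CPM on a log axis, with a marker for each replicate and a bar for each group mean. The HMGB1 libraries lie above the Controls for the 8 genes on the left, such as Tnf, and below them for the 7 on the right, such as Cnr2, with no overlap. For those picked as the largest rises and falls, absence of overlap was part of the rule.

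Receptors of HMGB1 and their partners moved in both directions. Of 18 listed, 17 were tested, 10 rose and 4 fell, against 28.4% and 31.8% of all genes, or 6 and 4 with library totals alone. The surface receptors of bacterial lipids and alarm signals rose: Tlr2 went from 125, 124 and 94.8 CPM to 675, 588 and 488 CPM (log2 fold change 2.35, standard error 0.146), and Cd14, a co-receptor of TLR4, from 285, 317 and 272 CPM to 1232, 1305 and 1326 CPM (2.14, standard error 0.104). Tlr1 (2.14) and Tlr6 (1.55), the partners of TLR2, rose as well. Tlr4 itself stood at 93.5, 70.4 and 82.4 CPM and then at 128, 103 and 135 CPM, a rise of 0.57 (adjusted p = 0.00231) that turned to -0.06 with library totals alone. Ly96, which encodes MD-2, rose by 0.68 from a Control mean of 10.6 CPM, or by 0.05 with library totals alone, which did not pass.

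Cxcr4, the receptor for CXCL12 that HMGB1 also engages, fell from 59.1, 53.0 and 57.9 CPM to 3.60, 4.96 and 2.46 CPM (-3.95, standard error 0.188). Havcr2, which encodes the HMGB1-binding checkpoint TIM-3, fell by 1.80, and Hmgb1 itself went from 39.7, 46.4 and 42.5 CPM to 28.8, 28.7 and 31.9 CPM (-0.52, adjusted p = 6.47e-04). Ager, which encodes RAGE, was scarce, with 80 counts over the Controls and 28 over the HMGB1 libraries (-1.28, adjusted p = 0.0206), and the call was lost without any one of 4 libraries, Control replicate 1 or 2 or HMGB1 replicate 1 or 3 (adjusted p from 0.0508 to 0.0761). Trem1 rose by 2.10 from 27 counts to 98.

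Of 22 adaptors and kinases downstream of the Toll-like receptors 13 rose and 4 fell, but with library totals alone 7 rose and 9 fell. The members with rises well above that shift were Peli1, a ubiquitin ligase of the pathway (4.04), the kinase Irak2 (2.86), the adaptor Myd88 (2.63), Irak3, which restrains the pathway (2.47), and the kinases Ikbke (2.07) and Tbk1 (1.59), which phosphorylate IRF3. Myd88 went from 53.0, 46.1 and 56.9 CPM to 312, 311 and 343 CPM. The TRIF gene Ticam1 stood at 25.2, 25.9 and 28.0 CPM and then at 28.6, 35.1 and 40.3 CPM. Its call as a rise was lost without any one of 3 libraries, Control replicate 2 or HMGB1 replicate 2 or 3 (adjusted p from 0.0526 to 0.0956). Tab1, an activator of the kinase TAK1, fell by 1.26.

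Of 18 NF-kB subunits and inhibitors 16 rose and 1, the deubiquitinase Otulin (-0.39), fell, with a median log2 fold change of 2.34 against -0.04 over all genes tested. Subunits rose, namely Nfkb2 (3.11), Nfkb1 (3.10), Rel (3.09), Relb (1.66) and Rela (1.40). The inhibitors that NF-kB itself induces rose too. Nfkbia, which encodes the inhibitor IκBα, went from 41.9, 52.6 and 42.6 CPM to 708, 715 and 662 CPM (3.92, standard error 0.120), and Nfkbiz, which encodes the nuclear IκBζ, from 10.6, 10.3 and 9.90 CPM to 650, 694 and 736 CPM (6.08, standard error 0.115). The HMGB1 libraries lay close together and far above the Controls. Tnfaip3, which encodes the ubiquitin-editing brake A20, rose by 3.51, and Tnip2 did not pass (-0.23, adjusted p = 0.227).

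The promoter of Nfkbia is shown because it carries a kB match near the start, in a gene that rose with little spread. Promoter windows are RefSeq sequences on GRCm38.p6, from 250 bases before to 50 after a start, and the 250 bases before it are printed 5′ to 3′ on the strand of the gene, with the match in capitals. The motif searched was GGG, any 2 bases and TTTCC, on either strand. It was in 35% of the windows of the NF-kB list (7 of 20), in 30% of those of CXC chemokines (3 of 10), in 17.9% of those of inflammatory cytokines (5 of 28) and in 1.63% of all 32851 windows. In Nfkbia (chr12:55492648-55492897, minus strand) the first base of the match was at position -29, where -1 is the base before the start.
Nfkbia: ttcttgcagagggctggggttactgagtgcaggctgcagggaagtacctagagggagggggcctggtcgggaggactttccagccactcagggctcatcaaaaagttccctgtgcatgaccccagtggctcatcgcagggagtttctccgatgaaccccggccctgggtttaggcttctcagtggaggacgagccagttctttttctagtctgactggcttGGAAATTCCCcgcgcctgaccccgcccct

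**Figure D3:**
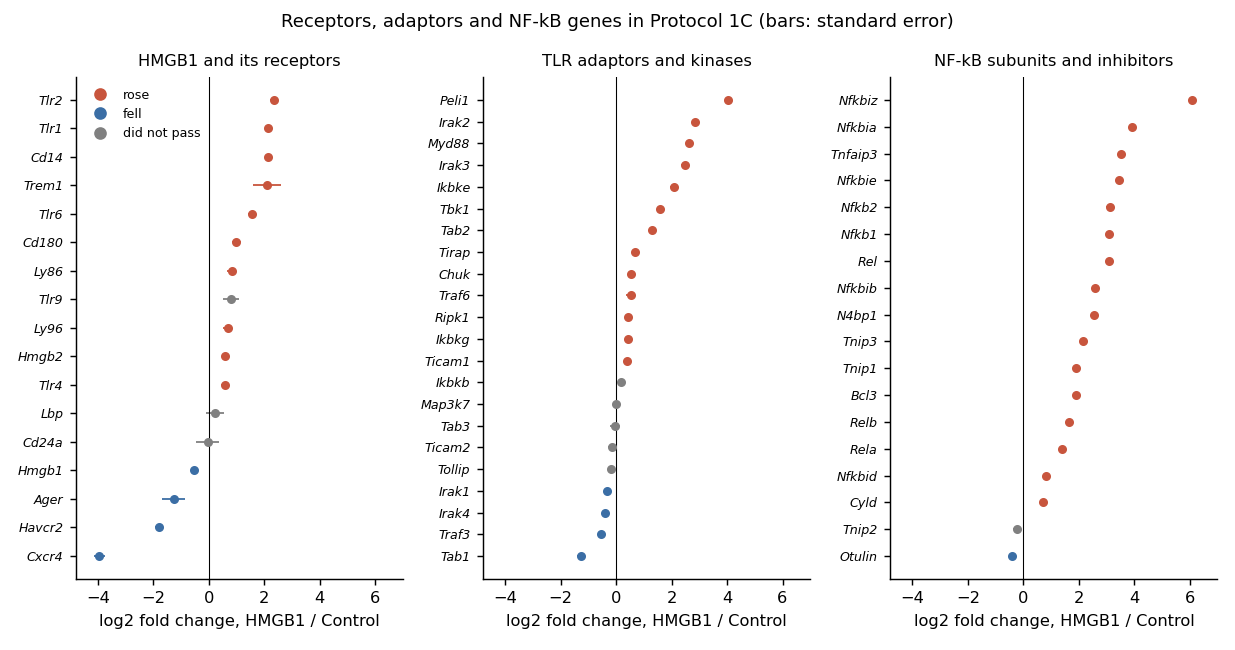
Log2 fold changes with standard errors for receptors, adaptors and NF-kB genes in Protocol 1C, HMGB1 against Control. NF-kB genes lie mostly to the right of 0, up to 6.08 for Nfkbiz, while receptors reach down to -3.95 for Cxcr4, and with library totals alone more adaptors fell (9) than rose (7).

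Inflammatory cytokines rose almost throughout: of 26 tested 25 rose and 1 fell, with a median log2 fold change of 4.80, or 4.73 with the 3 members that had no Control count set at their lower bound. Tnf went from 27.7, 32.3 and 31.2 CPM to 4240, 4790 and 4742 CPM, and Il1b from 2.28, 1.97 and 2.41 CPM to 2336, 2210 and 2021 CPM. Their log2 fold changes were 7.24 (standard error 0.142) and 9.95 (standard error 0.160). For both the exact permutation test gave p = 0.1, two-sided, the smallest value that 3 against 3 libraries allow. Il1a, which encodes the other IL-1 agonist, went from 12, 10.9 and 12.4 CPM to 1860, 1763 and 1905 CPM (7.29, standard error 0.130).

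Other cytokines were close to silent in Control. Il6 (chromosome 5, 30013114 to 30019981) had 0 counts in all 3 Controls and 411, 448 and 488 CPM with HMGB1, at least 10855-fold higher when the Controls are set at a floor of 3 counts over the group. Il12b, the p40 chain of IL-12 and IL-23, had 0 counts and then 144, 159 and 109 CPM, at least 3316.5-fold higher by the same floor. Csf2, which encodes GM-CSF, the factor added to the culture, had 0 counts and then 1.91, 0.606 and 0.803 CPM. Csf3, which encodes the granulocyte factor G-CSF, had 11 Control counts and 78.3, 75.9 and 84.0 CPM with HMGB1. Tnfsf15 rose from 4.2, 3.86 and 4.27 CPM to 715, 708 and 793 CPM (7.49, standard error 0.127), Il27 by 7.94, Il15 by 4.71 and Il18 by 3.71.

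Brakes on inflammation rose beside these. Il1rn, the antagonist of the IL-1 receptor, went from 164, 134 and 140 CPM to 619, 977 and 1252 CPM (2.70, standard error 0.256), with the HMGB1 libraries spread about 2-fold. Il10, an anti-inflammatory cytokine, had 4 counts over the Controls and 175 over the HMGB1 libraries, which stood at 1.82, 2.76 and 4.12 CPM. The list member that fell was Il16, a chemoattractant for CD4 cells, from 9, 9.60 and 6.64 CPM to 0.848, 1.10 and 1.05 CPM (-3.07, standard error 0.243). Il7 and Lif rose but stayed below 4 CPM in every library.

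Chemokine genes rose together. Of 13 CC chemokines tested 10 rose and 1 fell (9 and 3 with library totals alone), and of 12 CXC chemokines 9 rose and 0 fell by the edgeR test (8 and 1). Cxcl10, a T-cell attractant that interferon induces, went from 15.2, 4.97 and 12.6 CPM to 5953, 6207 and 7071 CPM (9.21, standard error 0.532), and Cxcl2, a neutrophil attractant, from 7.28, 9.42 and 7.45 CPM to 1882, 1840 and 1807 CPM (7.83, standard error 0.151). Control replicate 2 was the low one for Cxcl10 but not for Cxcl2. Cxcl1 rose by 8.58 and Cxcl3 by 8.13, the latter with HMGB1 libraries at 212, 137 and 76.1 CPM. Ccl3, an attractant of monocytes, went from 178, 238 and 265 CPM to 5230, 6012 and 6076 CPM (4.67, standard error 0.169). Ccl7 (4.49), Ccl12 (4.86) and Ccl5 (5.46) rose as well, whereas Ccl6 stood at 761 CPM in Control and 794 CPM with HMGB1 (0.06, adjusted p = 0.679).

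Receptors for these ligands moved in both directions. Of 13 chemokine and chemoattractant receptors 5 rose (38.5%) and 4 fell (30.8%), not far from the 28.4% and 31.8% of all genes. With library totals alone 5 rose and 8 fell. Ccrl2, a non-signalling receptor for chemerin, went from 27.7, 21.5 and 34.1 CPM to 1108, 1137 and 1114 CPM (5.33), and the formyl peptide receptor Fpr1 from 40.4, 39.7 and 17.8 CPM to 570, 606 and 429 CPM (4.04). Cx3cr1, the fractalkine receptor that marks microglia, fell from 20.1, 18.5 and 22.7 CPM to 8.69, 7.83 and 11.4 CPM (-1.13). Of 29 cytokine receptors 15 rose and 8 fell, which turned to 8 and 15 with library totals alone. Cd40, a costimulatory receptor, rose from 5.21, 4 and 4.50 CPM to 649, 711 and 783 CPM (7.29, standard error 0.148), and the death receptor Fas rose by 3.54. Both chains of the IL-6 receptor fell, Il6ra from 70.5, 69.5 and 68.3 CPM to 9.03, 9.59 and 8.54 CPM (-2.94) and Il6st by 1.51.

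Ifnb1 and the genes that interferon induces rose. Ifnb1 had 3 counts over the Controls and stood at 8.06, 9.97 and 16.3 CPM with HMGB1, a ratio of 272 with a 95% counting interval of 92.9 to 1324 and an exact permutation p of 0.1. Of 10 interferon genes and interferon regulatory factors tested 8 rose and 2 fell. Irf1 rose by 3.86, Irf7, which amplifies interferon production, by 3.14, and Irf8, a factor of macrophage identity (ENSMUSG00000041515, chromosome 8, 120736358 to 120756694), went from 157, 177 and 214 CPM to 685, 911 and 1396 CPM (2.45, standard error 0.278). The HMGB1 libraries of Irf8 spread about 2-fold but did not overlap the Controls. Irf4, which opposes MyD88 signalling, fell by 2.00, and Irf3 by 0.34, a call that leaving out either replicate 3 or the second HMGB1 library ended (adjusted p from 0.0506 to 0.0577).

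All 39 antiviral genes tested rose, with a median log2 fold change of 3.00, and 38 of them rose with library totals alone. Rsad2, which encodes the antiviral enzyme viperin, was at 241, 77.7 and 292 CPM in Control and at 15878, 17597 and 20083 CPM with HMGB1 (6.45, standard error 0.627, adjusted p = 4.48e-04). Its neighbor Cmpk2, a nucleotide kinase, went from 127, 50.7 and 176 CPM to 9164, 10266 and 12423 CPM (6.49), and Ifit2, which binds viral RNA, from 310, 113 and 452 CPM to 7862, 8330 and 10574 CPM (4.93). All 17 guanylate-binding proteins and immunity GTPases, which act against intracellular pathogens, rose too (median 4.34). Gbp5 went from 18.2, 9.64 and 28.6 CPM to 2335, 2346 and 2584 CPM (7.01, standard error 0.476). Some members, such as Tgtp1 (6.39), share reads with a near-identical copy, so their split between copies is uncertain.

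The libraries of 1 group differed in these genes in a common order. Control replicate 2 was the lowest Control in 39 of 39 antiviral genes and 17 of 17 GTPase genes, and in 20 of 21 genes of MHC class I presentation, against 35.4% of all genes tested. Control replicate 3 was the highest Control in 39 and 14 of them. With HMGB1, replicate 3 was the highest in 39 of 39 and 17 of 17, against 34.5% of all genes. The median antiviral gene stood at 81.6, 41.1 and 106 CPM in the 3 Controls and at 594, 598 and 747 CPM in the HMGB1 libraries. The spread between Controls was thus over 2-fold, and the groups did not overlap for any of the 39 genes. Of all genes tested, 31.6% were higher with HMGB1 without overlap. What set this order was not tested.

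**Figure D4:**
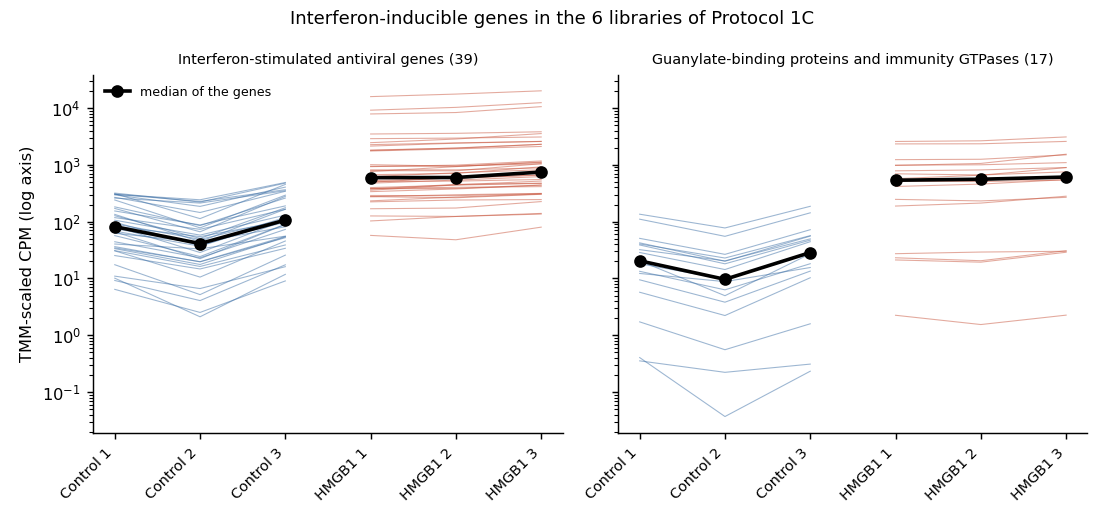
TMM-scaled CPM of each antiviral gene and each GTPase gene in the 6 libraries of Protocol 1C on a log axis, with thin lines for genes and thick lines for their median. Control replicate 2 is the low Control for every gene shown, HMGB1 replicate 3 is the high treated library, and every gene rises.

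The interferon-stimulated response element was searched as GAAA, any 2 bases and GAAA, on either strand. It was in 54.1% of the promoter windows of the antiviral list (20 of 37) and in 83.3% of those of the GTPase list (10 of 12), against 3.44% of all windows, and in 15.3% of the windows of genes that rose at least 8-fold. Rsad2 and Gbp5 are shown as the members of each list with large rises and a match. In Rsad2 (chr12:26456453-26456702, minus strand) the match began at position -120, and in Gbp5 (chr3:142496684-142496933, plus strand) at position -165. In both the letters lie on the strand opposite to the motif as written.
Rsad2: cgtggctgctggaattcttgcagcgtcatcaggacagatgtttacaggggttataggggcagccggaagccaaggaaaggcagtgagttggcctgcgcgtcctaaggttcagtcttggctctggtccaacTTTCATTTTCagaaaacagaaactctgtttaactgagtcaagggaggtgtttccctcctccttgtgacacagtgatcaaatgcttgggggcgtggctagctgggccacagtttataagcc
Gbp5: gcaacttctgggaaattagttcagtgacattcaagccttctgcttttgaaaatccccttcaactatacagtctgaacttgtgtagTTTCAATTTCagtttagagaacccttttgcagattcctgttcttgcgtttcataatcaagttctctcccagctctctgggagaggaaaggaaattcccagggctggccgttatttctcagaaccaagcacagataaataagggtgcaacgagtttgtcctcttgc

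Signal transducers of cytokine receptors and their inhibitors rose more often than they fell, 14 and 4 of 20 tested, or 10 and 8 with library totals alone. Socs3, which blocks STAT3 signalling, went from 3.39, 4.04 and 3.92 CPM to 450, 544 and 552 CPM (7.08, standard error 0.142), and Socs1 from 2.33, 2.04 and 4.89 CPM to 272, 324 and 420 CPM (6.76). Jak2 rose by 3.86. Of 28 AP-1, EGR and other immediate early factors 15 rose and 6 fell, or 11 and 8 with library totals alone. Cebpd, a factor of the acute response, rose by 4.04 and Ier3 by 3.27. Egr2 fell from 90.1, 77.8 and 82.1 CPM to 8.61, 8.76 and 8.14 CPM (-3.29, standard error 0.102), and Myc fell by 1.75. Egr1 did not pass, at 50.1, 84.8 and 82.1 CPM in Control and 84.3, 110 and 164 CPM with HMGB1 (adjusted p = 0.109).

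Of 15 MAP kinase phosphatases and related brakes 4 rose and 5 fell, shares close to the 28.4% and 31.8% of all genes. With library totals alone 3 rose and 8 fell, and with the DESeq2 Wald test 6 rose and 5 fell. Dusp2 went from 0.759, 0.667 and 0.738 CPM to 54.1, 59.9 and 62.0 CPM (6.34, standard error 0.142) and Dusp16 rose by 2.35, whereas Dusp3 (-1.48) and Dusp7 (-1.21) fell, and Dusp1 stood at 30.0 and 34.4 CPM in the group means (adjusted p = 0.236). Of 16 RNA decay regulators 11 rose and 5 fell, which turned to 5 and 7 with library totals alone. Zc3h12a, which encodes the nuclease Regnase-1 that cuts cytokine transcripts, rose by 3.05 and Zc3h12c by 3.34. The relatives of tristetraprolin fell, Zfp36l1 from 31.0, 42.3 and 49.1 CPM to 5.77, 7.88 and 7.13 CPM (-2.57) and Zfp36l2 by 1.47.

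Of 18 genes of inflammasomes, caspases and cell death effectors 11 rose and 4 fell, or 11 and 7 with library totals alone. Nlrp3, the sensor of the best known inflammasome, went from 31.3, 38.6 and 32.8 CPM to 1086, 1153 and 1277 CPM (5.10, standard error 0.132). Casp4, the sensor of intracellular lipopolysaccharide, rose by 3.52 and Mlkl, the effector of necroptosis, by 3.56. The adaptor Pycard did not pass (-0.20, adjusted p = 0.166), Nlrp1b fell by 2.40 and Casp9, the initiator of mitochondrial apoptosis, fell by 1.35. In the BCL2 family 8 of 15 rose and 3 fell, which turned to 5 and 8 with library totals alone. The pro-survival Bcl2a1d rose by 3.97, with reads shared among near-identical copies, while the pro-apoptotic Bmf and Bcl2l11 (-0.98) fell.

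Enzymes of small mediators and redox defense rose in part. Beside Nos2, Ptgs2 and Acod1, the arginine transporter Slc7a2 went from 66.9, 68.1 and 66.8 CPM to 1545, 1716 and 1607 CPM (4.59, standard error 0.109), and 10 of 21 members of that list rose and 4 fell, or 9 and 9 with library totals alone. Arg1, the arginase of alternatively activated macrophages, stood at 69.4, 47.0 and 70.7 CPM and then at 52.2, 44.7 and 73.1 CPM (adjusted p = 0.634). Of 24 NADPH oxidase and antioxidant genes 13 rose and 1 fell, or 10 and 8 with library totals alone. The mitochondrial superoxide dismutase Sod2 went from 95.4, 101 and 80.9 CPM to 1052, 1092 and 1061 CPM (3.53). The cystine transporter Slc7a11 rose by 3.65 (adjusted p = 0.0049) with replicate 3 lowest in both groups, at 87.3, 64.8 and 28.8 CPM in Control and 1006, 872 and 384 CPM with HMGB1.

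Antigen presentation genes rose more often than they fell under both scalings. For MHC class I, 19 of 21 members rose and 0 fell by the edgeR test (16 and 2 with library totals alone), with a median log2 fold change of 1.71. The largest rises were those of the class I activator Nlrc5 (3.58) and the peptide transporter genes Tap1 (3.37) and Tap2 (2.72), and Nlrc5 went from 61.2, 44.6 and 84.4 CPM to 697, 776 and 804 CPM. For class II and costimulation 14 of 18 rose and 0 fell by the edgeR test, or 9 and 5 with library totals alone. The adhesion molecule Icam1 went from 48.5, 54.4 and 43.9 CPM to 927, 901 and 965 CPM (4.25), and Cd274, which encodes the inhibitory ligand PD-L1, from 127, 73.5 and 130 CPM to 2127, 2129 and 2541 CPM (4.36).

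Complement and phagocytic receptor genes moved less evenly. Of 20 complement genes 10 rose and 1 fell, which turned to 5 and 7 with library totals alone. C3, the central component, rose from 422, 334 and 461 CPM to 1587, 1840 and 1955 CPM (2.15), and C1qc, a chain of the first component, did not pass (0.25, adjusted p = 0.24). Of 26 Fc and phagocytic receptors 13 rose and 5 fell, or 12 and 11 with library totals alone. Clec4e, a receptor for mycobacterial glycolipid, went from 178, 187 and 105 CPM to 3003, 2922 and 2164 CPM (4.10), Timd4, a receptor for phosphatidylserine, rose by 3.27 and Mertk, which clears apoptotic cells, by 1.75. The lipoprotein receptor Lrp1 fell from 1446, 1518 and 1364 CPM to 681, 729 and 696 CPM (-1.04).

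Of 28 genes of the homeostatic microglial state 14 fell (50%) and 3 rose (10.7%), against 31.8% and 28.4% of all genes. With library totals alone 23 fell and 3 rose. The median log2 fold change was -0.37, smaller in size than the common shift between the scalings given above. Relative to the median of all genes tested it was -0.33, both with TMM and with library totals alone. Gpr34 fell from 16.5, 13.8 and 19.6 CPM to 3.22, 3.75 and 3.16 CPM (-2.30, standard error 0.176), and Tgfbr1, a receptor for the TGF-β that maintains microglia, from 182, 141 and 140 CPM to 61.7, 45.1 and 46.0 CPM (-1.60, standard error 0.147). Entpd1, the ectoenzyme CD39, fell by 1.28 and Gas6, the ligand of Mertk, by 0.89. These falls were modest beside those of the receptors above. P2ry13 rose instead, from 11.2, 12.1 and 14.8 CPM to 78.7, 93.4 and 75.5 CPM (2.69, standard error 0.128).

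Of 20 transcription factors of microglia and macrophages 7 rose (35%) and 9 fell (45%), against 28.4% and 31.8% of all genes. With library totals alone 6 rose and 12 fell. Cebpa, which drives myeloid differentiation, fell from 149, 204 and 211 CPM to 15.1, 13.8 and 8.03 CPM (-3.93, standard error 0.266), and Bhlhe40, a regulator of macrophage proliferation and cytokines, fell by 2.67. Rxra, the partner of lipid-sensing nuclear receptors, went from 150, 148 and 151 CPM to 43.6, 36.5 and 36.2 CPM (-1.95). Tfec rose by 2.61. Of 27 genes of disease-associated microglia 5 rose and 5 fell, but the DESeq2 Wald test gave 10 rises, and with library totals alone 5 rose and 21 fell. Apoe, a lipid carrier, stood at 15278, 15776 and 21885 CPM and then at 19600, 20030 and 26357 CPM (0.32, adjusted p = 0.121), and the lysozyme gene Lyz2 did not pass either (adjusted p = 0.137). Ch25h, which makes an antiviral oxysterol, was the exception by size, from 3.79, 4.34 and 5.98 CPM to 606, 731 and 1092 CPM (7.42).

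Receptors for purines and lipids fell in 10 of 21 cases and rose in 5, or 13 and 4 with library totals alone. P2ry6, which triggers phagocytosis, fell from 124, 104 and 113 CPM to 22.8, 22.0 and 23.1 CPM (-2.33, standard error 0.0943). Adora2a, an adenosine receptor that dampens inflammation, rose from 1.16, 1.71 and 1.09 CPM to 102, 102 and 82.6 CPM (6.16, standard error 0.168), and Gpr84, a receptor for medium-chain fatty acids, rose by 5.58. Sterol synthesis genes fell in 11 of 24 cases and rose in 2 (19 and 1 with library totals alone), and the falls included Dhcr7, which makes the last step to cholesterol (-2.08). For cholesterol efflux and LXR targets 5 rose and 5 fell of 17 (29.4% each), close to the 28.4% and 31.8% of all genes. With library totals alone 1 rose and 10 fell.

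Energy metabolism moved by smaller steps. Of 28 glycolysis and hypoxia genes 13 rose and 7 fell, which turned to 6 and 15 with library totals alone. The hexose transporter Slc2a6 was the largest rise, from 31.1, 34.3 and 34.7 CPM to 675, 645 and 651 CPM (4.30, standard error 0.103), and Hk2, a hexokinase, rose by 1.64, while Vegfa fell by 2.28 and Pkm did not pass (0.09, adjusted p = 0.441). Of 24 citric acid cycle enzymes 3 rose and 9 fell, or 0 and 22 with library totals alone. With DESeq2 size factors, and also with the DESeq2 Wald test, 5 rose and 5 fell. Idh1 fell from 201, 194 and 184 CPM to 63.0, 52.3 and 47.8 CPM (-1.83). Nuclear genes of oxidative phosphorylation rose in 18 of 42 cases and fell in 1, but with library totals alone 1 rose and 29 fell, so their direction rests on the scaling. Their largest rise was Cycs, cytochrome c, by 1.65. Of 14 mitochondrially encoded genes 6 rose and 0 fell by the edgeR test, or 1 and 1 with library totals alone.

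Stress, lysosome, iron and matrix genes were mixed, beside 28.4% rising and 31.8% falling among all genes tested. Unfolded protein and integrated stress response genes gave 8 rises and 8 falls of 23 (34.8% each), shares not far from those of all genes. With library totals alone 3 rose and 17 fell. Ppp1r15a, which restores translation, was up by 2.24 and the stress kinase Eif2ak3 was lower (-1.91). Of 16 heat shock chaperones 3 rose and 5 fell, or 3 and 13 with library totals alone and 5 and 5 with the DESeq2 Wald test. Of 38 lysosomal genes 5 rose and 9 fell, or 1 and 33 with library totals alone. The DESeq2 Wald test gave 9 rises and 7 falls for them. The protease Ctsc rose by 2.48, and Tfeb, the transcription factor of lysosome biogenesis, fell from 40.7, 56.8 and 53.9 CPM to 7.51, 6.17 and 5.37 CPM (-2.99). Of 15 iron genes 6 rose and 4 fell, which turned to 4 and 9 with library totals alone. Slc40a1, which encodes the iron exporter ferroportin, fell from 122, 112 and 129 CPM to 26.3, 20.2 and 17.6 CPM (-2.49), and the importer Slc11a2 rose by 1.34. Of 31 matrix proteases and growth factors 20 rose and 8 fell, or 17 and 11 with library totals alone. The collagenase Mmp13 went from 133, 84.3 and 152 CPM to 4240, 5095 and 7473 CPM (5.51), Edn1, endothelin, rose by 7.81, and Plau, urokinase, fell from 1252, 1133 and 1264 CPM to 285, 271 and 304 CPM (-2.08).

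Cell cycle genes fell as groups. Of 45 DNA replication genes 31 fell and 4 rose (median -0.84), and of 48 mitosis genes 37 fell and 4 rose (median -1.20), which became 40 and 1 and 43 and 2 with library totals alone. Mcm2, a subunit of the replicative helicase, went from 43.4, 41.4 and 42.2 CPM to 9.96, 12.6 and 12.4 CPM (-1.86, standard error 0.114), and E2f2, an activator of S phase genes, from 7.33, 9.05 and 5.12 CPM to 0.382, 0.551 and 0.452 CPM (-3.96). Cdc25b, a phosphatase that opens mitosis, fell by 3.51 and the cytokinesis motor Kif23 fell by 2.91. The 8 exceptions that rose included Rfc3 (1.99) of replication and Pttg1 (2.35) and Cenpe (1.21) of mitosis, and Pcna did not pass (0.09, adjusted p = 0.465). In bulk RNA, fewer cycling cells and less of these transcripts per cell cannot be told apart. Of 20 G1 cyclins and inhibitors 9 rose and 8 fell, or 6 and 11 with library totals alone. Ccnd2, a G1 cyclin, rose from 10.3, 9.31 and 9.55 CPM to 172, 213 and 229 CPM (4.40) and Cdk2 fell by 1.86.

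The E2F motif was searched as TTTNGCGC on either strand and was in 27.9% of the promoter windows of the replication list (12 of 43) against 1.38% of all windows. It was in 2.82% of the windows of genes that fell and in 2.27% of those of tested genes that did not pass. Mcm5, which fell from 37.8, 47.8 and 41.1 CPM to 18.4, 26.1 and 21.4 CPM (-0.95, standard error 0.136), is shown because its window holds matches on both strands, at positions -153 and -149, that overlap each other (chr8:75109259-75109508, plus strand). This helicase gene lies in the list that fell.
Mcm5: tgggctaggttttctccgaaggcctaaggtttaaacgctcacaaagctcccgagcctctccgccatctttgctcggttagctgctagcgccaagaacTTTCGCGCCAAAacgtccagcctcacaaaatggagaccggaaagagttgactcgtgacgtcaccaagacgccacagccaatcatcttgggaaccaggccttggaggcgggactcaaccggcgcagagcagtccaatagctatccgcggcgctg

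Markers of other brain and blood cells are given by the summed level of each list. Neutrophil and haemoglobin markers summed to 2.33 to 4.86 CPM in Control and 6.68 to 11.3 CPM with HMGB1, with S100a9, Elane and Hbb-bs at 0 in all 6 libraries. The 1 member tested, S100a8, rose by 1.49. Neuron markers summed to 4.45 to 6.12 and 5.84 to 8.14 CPM, and 0 of 3 changed by the edgeR test. T, B and NK cell markers summed to 3.09 to 3.57 and 2.16 to 3.43 CPM, with Cd3e and Cd8a at 0, and 0 of 1 changed by the edgeR test (1 fell with library totals alone). Astrocyte markers summed to 332 to 338 CPM in Control and 124 to 139 CPM with HMGB1, with 3 rises and 1 fall among 11, which turned to 1 and 4 with library totals alone. The rises were Slc1a2, Aldh1l1 and Gja1. The fall was Glul, glutamine synthetase, which macrophages also express, from 278, 275 and 290 CPM to 60.8, 61.3 and 66.2 CPM. Glul made up most of the Control sum. Endothelial markers summed to 103 to 127 and 246 to 322 CPM, with Cldn5, Tie1 and Emcn at 0 and 3 of 6 rising (3 up and 1 down with library totals alone). The 3 that rose were Flt1, Kdr and Cdh5. Flt1, a VEGF receptor that monocytes also carry, went from 41.3, 34.7 and 45.1 CPM to 166, 182 and 250 CPM.

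Fibroblast and mural markers summed to 60.3 to 117 CPM in Control and 106 to 128 CPM with HMGB1, with 3 of 9 rising (2 up and 2 down with library totals alone), and oligodendrocyte markers to 179 to 253 and 246 to 281 CPM, with 1 rise and 2 falls among 14, or 1 and 6 with library totals alone. Monocyte markers summed to 551 to 719 and 1116 to 1122 CPM, and 4 of 7 rose and 1 fell. The monocyte receptor Ccr2 was the one that fell, from 3.90, 3.08 and 3.22 CPM to 1.10, 1.38 and 1.10 CPM (-1.50). The part of other cell types in the matrix, endothelial and growth factor rises was not tested.

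Protocol 1A used the same GM-CSF dose and litters of the same age but 10 days of culture, so the response to HMGB1 was compared between 1C and 1A, which share no libraries. The difference between responses was tested as an interaction in a fit of all 30 libraries, and levels in this comparison are scaled over those 30. Of 18182 genes tested, 993 had a larger log2 response in 1C (5.46%) and 1551 a smaller one (8.53%), and the latter became 993 without 1A HMGB1 replicate 1. Larger and smaller refer to the signed log2 response, so a gene that fell further in 1C counts as smaller. With DESeq2 size factors the split was 1215 and 1032, and with library totals alone 708 and 3385, so the larger side of the split is not settled by these data. Days in culture cannot be told apart from any other difference in handling between the 2 protocols.

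Of the 993 genes with larger responses 587 rose in both protocols, 217 passed as rising in 1C alone and 33 fell in 1A and rose in 1C. Of the 1551 with smaller responses 597 fell in both, 479 passed as falling in 1C alone and 86 rose in 1A and fell in 1C. Irf8 was one of the 33. It went from 130, 130 and 162 CPM to 76.0, 93.1 and 91.8 CPM in 1A (-0.69, adjusted p = 0.00403) and from 165, 187 and 228 CPM to 720, 964 and 1472 CPM in 1C (2.44), a difference of 3.14 (standard error 0.269, adjusted p = 1.39e-07). The direction of Irf8 thus differed between the protocols, and every HMGB1 library lay below its Controls in 1A and above them in 1C.

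For several other genes the larger response went with a lower Control level. Vcan, a matrix proteoglycan of monocytes, was at 45.5, 50.8 and 28.9 CPM in 1A Controls and 6.19, 3.81 and 3.64 CPM in 1C Controls, while the HMGB1 levels overlapped, at 124, 182 and 137 CPM and at 109, 123 and 159 CPM (difference 3.04, adjusted p = 3.73e-05). Rnd3, a small GTPase, was at 8.89, 7.41 and 7.67 CPM in 1A Controls and 1.81, 2.83 and 2.11 CPM in 1C Controls, and with HMGB1 at 17.2, 19.0 and 19.4 CPM in 1A and 51.4, 63.2 and 64.0 CPM in 1C (difference 3.49, adjusted p = 9.25e-08). Il1b rose more in 1C, by 2.29 (standard error 0.319, adjusted p = 3.23e-05), from a Control mean of 2.22 CPM in the fit of the 6 libraries. For Tnf the difference was 0.28 (standard error 0.218, adjusted p = 0.455) and for Ifnb1 2.10 (standard error 1.94, adjusted p = 0.551). Il12b stood at 40.9, 48.2 and 39.9 CPM with HMGB1 in 1A and at 152, 168 and 114 CPM in 1C, with 7 and 0 Control counts.

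Among smaller responses, Frmd6 and Gadd45a turned direction. Gadd45a, a growth arrest gene, went from 8.03, 7.50 and 5.65 CPM to 17.1, 13.9 and 16.3 CPM in 1A (1.15) and from 8.81, 14.5 and 18.3 CPM to 5.92, 6.36 and 6.04 CPM in 1C (-1.19), a difference of -2.34 (adjusted p = 6.33e-07). Frmd6, a regulator of Hippo signalling, rose by 1.32 in 1A and fell by 1.08 in 1C (difference -2.40, adjusted p = 1.39e-08). The adenosine receptor Adora2b was at 28.3, 27.6 and 29.2 CPM with HMGB1 in 1A and at 5.17, 7.12 and 6.04 CPM in 1C, from Control levels of 3.97 and 5.30 CPM in the means (difference -2.63, adjusted p = 3.42e-07). Dgat2, which makes triglycerides, was at 14.7, 17.6 and 19.9 CPM with HMGB1 in 1A and 2.67, 5.13 and 3.12 CPM in 1C (difference -2.87, adjusted p = 4.60e-06).

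**Figure D5:**
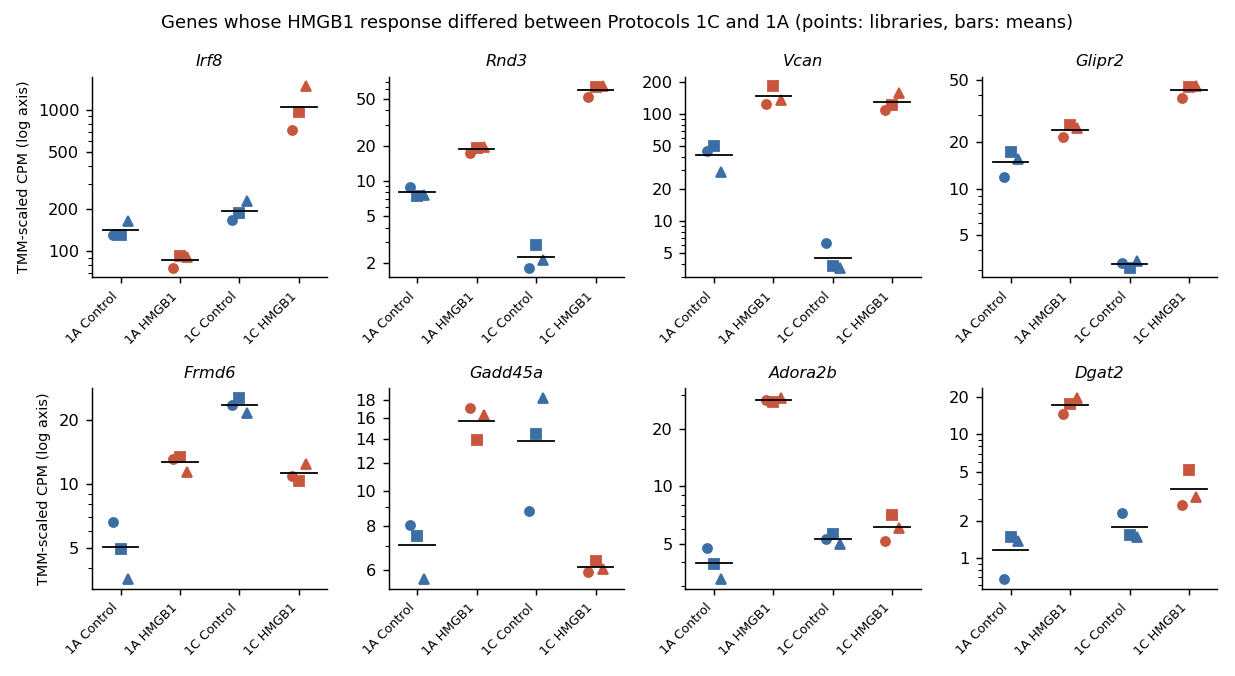
TMM-scaled CPM, scaled over all 30 libraries and on log axes, of 8 genes whose response to HMGB1 differed between Protocols 1A and 1C, with a marker for each library and a bar for each group mean. Irf8 goes down in 1A and up in 1C, Frmd6 and Gadd45a go up in 1A and down in 1C, and Adora2b and Dgat2 are high only in the HMGB1 libraries of 1A among the 4 groups shown.

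The counts by list stand against 5.46% of all genes with a larger response in 1C and 8.53% with a smaller one. Here too the sign is meant, so a smaller response can be a weaker rise or a deeper fall. Of 18 inflammasome and cell death genes 10 had a larger response in 1C and 3 a smaller one, among them Nlrp3 (0.56, standard error 0.152). Of 30 cytokine genes 6 had a larger response and 0 a smaller one by the edgeR test: Il1b, Il1rn, Il12b, Il27, Il18 and Il15. Among 39 antiviral genes 2 had a larger response, Ifih1 and Samhd1, a share close to that of all genes, and among 17 GTPase genes none passed by the edgeR test. The median log2 difference was still 0.58 for the antiviral and 0.65 for the GTPase genes. It was 0.50 for the cytokine genes and -0.028 over all genes tested. Iron genes went the other way, with 7 of 16 smaller and 0 larger by the edgeR test, as did the unfolded protein response, with 6 of 24 smaller and 0 larger. Of 18 HMGB1 receptors and partners 2, Tlr9 and Cd180, had larger responses and 3, Cxcr4, Hmgb1 and Trem1, smaller ones, and leaving out any 1 library kept the calls for Cd180 and Cxcr4. The calls for Tlr9, Hmgb1 and Trem1 were each lost without any one of 7 or more libraries, with adjusted p up to 0.109, 0.124 and 0.115. For Il1rn, Il27, Ifih1 and Nlrp3 the call was lost without 1 of between 1 and 3 libraries, with adjusted p up to 0.0679, 0.142, 0.0772 and 0.0507.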

How the data were processed

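RNA of 6 libraries of Protocol 1C, 3 HMGB1 and 3 Control, was sequenced by the study as part of 30 libraries in 10 groups. Per the labels, the authors used HISAT2 2.0.5 for alignment and featureCounts 1.5.0-p3 for counting, and the deposited table holds raw counts of 54532 genes. The genome build is not given in the sources used here, although 98.33% of the 54495 gene identifiers shared with GENCODE M21 had the same start and end. Whether counting used strand is not given either, so overlapping and antisense genes, and near-identical copies, are uncertain.

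Groups came from the labels. Counts were filtered with filterByExpr, scaled with TMM and tested with the edgeR 4.0.16 quasi-likelihood F test (robust, R 4.3.3, statmod 1.5.0) with Benjamini-Hochberg adjustment over all genes tested and a threshold of 0.05, with no minimum fold. The standard error is the log2 fold change over the square root of F. The study used DESeq2, run here (1.42.0) as an alternative. Genes with 0 Control counts were set against a floor of 3 counts over the group, and intervals cover counting error only. P-values measure the spread between these libraries. Python 3.11.15 with pandas 2.3.3, numpy 2.4.6, scipy 1.17.1 and matplotlib 3.10.9 made the tables and figures. Totals of 16111171 to 28564757 counts put 1 count at under 0.1 CPM.

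The gene lists and their members were chosen with earlier results of these data known. Named genes were Tnf, Il1b and Ifnb1, the 12 largest rises and falls of protein-coding genes at 10 CPM or more in the higher group without overlap and with at least 1 count in each group, the 10 largest gains and losses in CPM, the members of core lists, the leading members of other lists and markers, and the 10 largest differences in each direction between Protocols 1C and 1A. Mcm5 and Ifih1 lie outside that rule and were named after their values were seen. On simulated data for the 1C response, 39.1% of genes changed 1.5-fold, 61.5% of those changed 2-fold and 93.1% of those changed 4-fold were recovered, with 14 false calls among 13549 genes. Only 64, 65 and 58 genes were changed at these folds, some up and some down, whereas 60.2% of genes passed in the data. These rates are therefore not those of the real comparison, and the simulation could not test the scaling. Alternatives covered scaling, test, filter, libraries in the fit, a replicate block, a minimum fold and each library left out.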

Additional observations from a re-analysis of the deposited data

Results flagged for a closer look

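The response to HMGB1 differed between Protocols 1C and 1A for 2544 genes by the edgeR interaction test, which is what brought these values here. The differences of log2 responses, 1C minus 1A, were 3.75 for Asap3, 3.60 for Serpina3f, 3.53 for Lipg, 3.49 for Rnd3, 3.18 for Mmp25, 3.14 for Irf8 and 3.04 for both Vcan and Glipr2 among the genes with larger responses in 1C. Among those with smaller responses they were -3.86 for Adamts4, -2.87 for Dgat2, -2.63 for Adora2b, -2.49 for Col4a2, -2.40 for Frmd6, -2.34 for Gadd45a, -2.22 for Plekhg3, -2.08 for Jag1, -2.06 for Jade1 and -2.01 for Egr2.

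These differences arose in several ways. Serpina3f, a serine protease inhibitor, and Asap3, an Arf GTPase activator, reached higher levels with HMGB1 in 1C from Control levels near 1 CPM or below in both protocols. Adamts4, an aggrecanase, had 5 Control counts in 1A and 110 in 1C, while its levels with HMGB1 were 19.5, 25.3 and 21.8 CPM in 1A and 32.6, 34.3 and 32.4 CPM in 1C. Jag1, a Notch ligand, rose by 2.41 in 1A and did not pass in 1C (0.33, adjusted p = 0.0935). Plekhg3, Egr2 and Jade1 fell in both protocols, and by more in 1C.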

How the results depend on the processing

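With library totals only, 2134 genes rose and 8578 fell in the 1C response, 4093 genes differed between 1C and 1A with 3385 of them smaller in 1C, and 449 list members fell. With DESeq2 size factors 1032 genes were smaller in 1C. A minimum log2 fold change of 1 left 4513 genes (2285 up, 2228 down), 621 differences (357 larger, 264 smaller) and 130 list members that fell. Under library totals only, 9 of the named genes turned to a fall: C1qc (-0.38), Ccl6 (-0.57), Cd68 (-0.46), Dusp1 (-0.44), Lyz2 (-0.41), Pcna (-0.54), Pkm (-0.54), Ticam1 (-0.24) and Tlr4 (-0.061), of which Ticam1 (adjusted p = 0.0859) and Tlr4 (0.643) did not pass there and the other 7 had not passed with TMM. Why scaling moved them was not tested beyond the common shift of -0.63.

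Leaving out each library in turn gave 7823 to 8659 genes for the response (3733 to 4149 up, 4090 to 4510 down), 1771 to 2584 for the difference (733 to 1021 larger, 993 to 1580 smaller, with 993 without 1A HMGB1 replicate 1), 402 to 426 list members up and 210 to 227 down. Log2 fold changes ranged from 7.17 to 7.30 for Tnf, from 9.85 to 10.01 for Il1b and from 7.30 to 8.86 for Ifnb1. The difference for Lipg was lost in the fits of 12 (adjusted p = 0.0965) and 18 libraries (0.0598), and that for Serpina3f in the fit of 18 (0.0556) and in 8 fits without 1 library (up to 0.241). In the fit of 12 libraries the differences of Ifih1 (0.127), Tlr9 (0.0917), Trem1 (0.062) and Hmgb1 (0.0855) were lost too, and in that of 18 those of Ifih1 (0.0523) and Il1rn (0.0672). Hmgb1 was also lost with the DESeq2 Wald test (0.0992), with DESeq2 size factors (0.128) and with no filter on low counts (0.25), and Nlrp3 with library totals only (0.113).

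With the replicate number as a block, 9010 genes passed for the response and 3547 for the difference. Same-numbered Control and HMGB1 libraries correlated at 0.122, 0.092 and 0.145 in their deviations from the group means, each best with its own number, as a hint from the data and not the design. With 3 libraries a group, changes under 2-fold were often missed in simulated data, in which far fewer genes changed than passed here.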
